A study of Mus musculus with 3 samples.

Results

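Levels of 6 genes of the plasminogen system and of coagulation were described in RNA bound to chromatin in mouse macrophages: Plau, Plaur, Serpinb2, F3, Thbs1 and Edn1. The members were chosen by name, and each symbol matched 1 gene in the tables of every library, 6 of 55536 annotated genes. The cells were bone marrow-derived macrophages, primary cells of strain C57BL/6J, given Lipid A at 100 ng/ml and collected 40 min later. Their chromatin fraction was depleted of ribosomal RNA and read as total RNA in 1 group of 3 biological replicates, prepared from 1 µg (replicate 1), 250 ng (replicate 2) and 500 ng (replicate 3) of RNA. The 3 samples cite the same donor entry, and age and sex were not collected per the labels. Untreated cells, other times and other fractions were not analysed here, so a level in these data cannot be read as a response to Lipid A. Within a library, genes were set against each other, and for each gene the libraries were set against each other. The p-values therefore set a difference in level against the spread between these 3 libraries, which is partly estimated from other genes of a like level.

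Lipid A is the membrane anchor of lipopolysaccharide and acts on macrophages through Toll-like receptor 4. The plasminogen system dissolves fibrin and matrix: the protease urokinase, made from Plau, binds its receptor on the cell surface, made from Plaur, and turns plasminogen into plasmin, while serpins such as the product of Serpinb2 inhibit urokinase. Coagulation on activated monocytes and macrophages starts from tissue factor, the product of F3, which binds factor VII. Thbs1 encodes thrombospondin-1, a matrix glycoprotein that binds cells and activates latent TGF-beta, and Edn1 encodes the precursor of endothelin-1, a peptide that constricts vessels and is best known from endothelium. RNA bound to chromatin is rich in transcripts that are still being made or spliced, so a level here stands nearer to transcription than one in whole-cell RNA.

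The libraries held 12699813, 18280033 and 18087091 expected counts in replicates 1, 2 and 3. Of 10 macrophage markers, 9 were called higher than the reference gene defined below, and the other, Fcgr1, averaged 4.92 ± 1.14 TPM (SD, n = 3). Of 36 markers of 7 other cell types, 1 was called higher, 31 lower and 4 neither. Of all genes tested, 15.1% were called higher and 52.6% lower. Epcam, Krt8, Krt18, Cdh1, Elane and Alb had no count in any library of the alignment-based table. The summed level of the 8 endothelial markers was between 48.9 and 55.6 TPM per library, of which Vwf, also made by platelets, gave 45.3 to 51.8 TPM. Megakaryocyte and platelet markers summed to 12.7, 23.3 and 23.2 TPM in replicates 1, 2 and 3. Fibroblast and stromal markers summed to 0, 1.58 and 1.68 TPM in the alignment-based table. In the alignment-free table they were not at 0 in replicate 1, where Col1a1 had 1.34 TPM and Pdgfra 0.71 TPM.

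The 6 genes fell on both sides of the typical expressed gene. Levels were set against a reference gene, the median over 8765 protein-coding genes of nuclear chromosomes that averaged 1 TPM or more, which lay at 7.56, 6.64 and 6.56 TPM in replicates 1, 2 and 3. The scale is log2(TPM + 0.1), and limma's treat method asked whether a gene lay more than 2-fold from the reference gene, with Benjamini-Hochberg adjustment over 18463 genes. Plaur, Plau and Thbs1 were called higher and Serpinb2, F3 and Edn1 lower at an adjusted p under 0.05. Of all genes tested, 15.1% were called higher and 52.6% lower, so a lower call is what most genes received. The median of the 6 members was 0.02, between the 2 sets, against -1.10 for the 12333 protein-coding genes tested and -1.75 for all 18463 genes. Low RNA of a gene in bulk samples can stand for fewer expressing cells or for less RNA per cell, which cannot be told apart here.

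**Figure D1:**
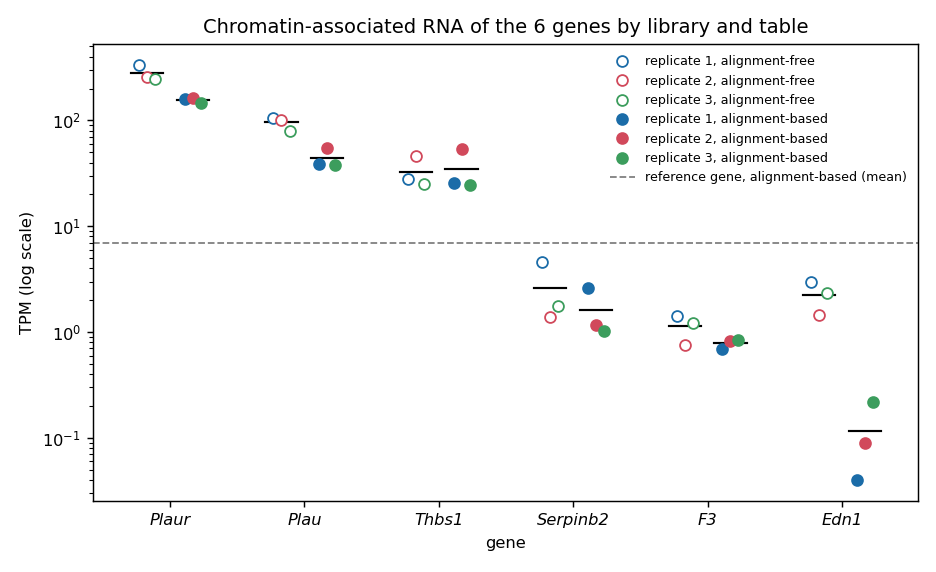
Points give the TPM of each gene (log axis) in each library, open for the alignment-free table and filled for the alignment-based gene table, with a bar at the mean of 3 libraries, and the dashed line is the mean alignment-based level of the reference gene. Plaur, Plau and Thbs1 lie above the line in every library, Serpinb2, F3 and Edn1 below it, and Edn1 is the gene whose 2 tables stand farthest apart.

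Plaur, the urokinase receptor gene, had the highest level of the 6. It spans chr7:24462484-24475968 on the plus strand of mm10 (ENSMUSG00000046223.10), with 1 protein-coding isoform among 6 annotated ones. Its gene level was 159.6, 164 and 147 TPM in replicates 1, 2 and 3, from 1364, 1995 and 1909 expected counts. These values lay close together and far above the reference gene in every library. The difference was 4.48 ± 0.12 on the log2 scale (SE, n = 3; limma adjusted p = 3.9e-05), which is 22.4-fold, and Plaur ranked 218 of 12333 protein-coding genes tested.

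Little of the Plaur level lay in the isoform that encodes the receptor. Plaur-201, with 7 exons and 1506 bases, had 3.29, 10.6 and 19.6 TPM in replicates 1, 2 and 3, from 58.9, 305 and 529 expected counts. That was 2.06%, 6.46% and 13.4% of the gene's TPM, so replicate 1 was lowest and replicate 3 highest in share and in level. Isoforms annotated as retained intron held 77.0%, 65.6% and 62.5%, and isoforms annotated for nonsense-mediated decay, the pathway that removes RNA with an early stop codon, held the remaining 20.9%, 28.0% and 24.1%. The single isoform with the highest level was Plaur-205, which ends 153 bases into the second intron and is 347 bases long. It had 58.9, 59.5 and 49.8 TPM from 115, 156 and 132 expected counts, so a short transcript with few counts supplied 33.9% to 36.9% of the gene's TPM. Plaur-202 had 36.9, 29.9 and 25.5 TPM, Plaur-204 had 27.1, 18.2 and 16.5 TPM, and Plaur-206 had 33.4, 46.0 and 35.4 TPM. Plaur-203 had no count.

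The isoforms part from Plaur-201 at 3 exon ends, and the bases around these points are shown because the split of the Plaur level rests on reads that cross or pass them. In each sequence, read from the annotation's transcripts, the last 20 bases of the shared exon are in lower case and the next 20 bases of that isoform in capitals. At the end of exon 2 (chr7:24465222-24465241) Plaur-201 goes on to exon 3, Plaur-205 reads on into the intron, and Plaur-206 joins an acceptor 186 bases upstream of exon 3.
Plaur-201: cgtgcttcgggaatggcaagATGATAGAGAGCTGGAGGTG
Plaur-205: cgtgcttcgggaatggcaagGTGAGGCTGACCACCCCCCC
Plaur-206: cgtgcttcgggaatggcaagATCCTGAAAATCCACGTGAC
At the end of exon 4 (chr7:24472035-24472054) Plaur-204 keeps the intron, which starts with GT as splice donors do.
Plaur-201: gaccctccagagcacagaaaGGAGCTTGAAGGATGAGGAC
Plaur-204: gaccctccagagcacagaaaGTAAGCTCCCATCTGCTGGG
At the end of exon 5 (chr7:24472688-24472707) Plaur-202 reads 253 bases into the next intron and ends there.
Plaur-201: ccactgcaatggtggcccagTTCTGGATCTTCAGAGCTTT
Plaur-202: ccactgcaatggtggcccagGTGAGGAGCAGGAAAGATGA

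**Figure D2:**
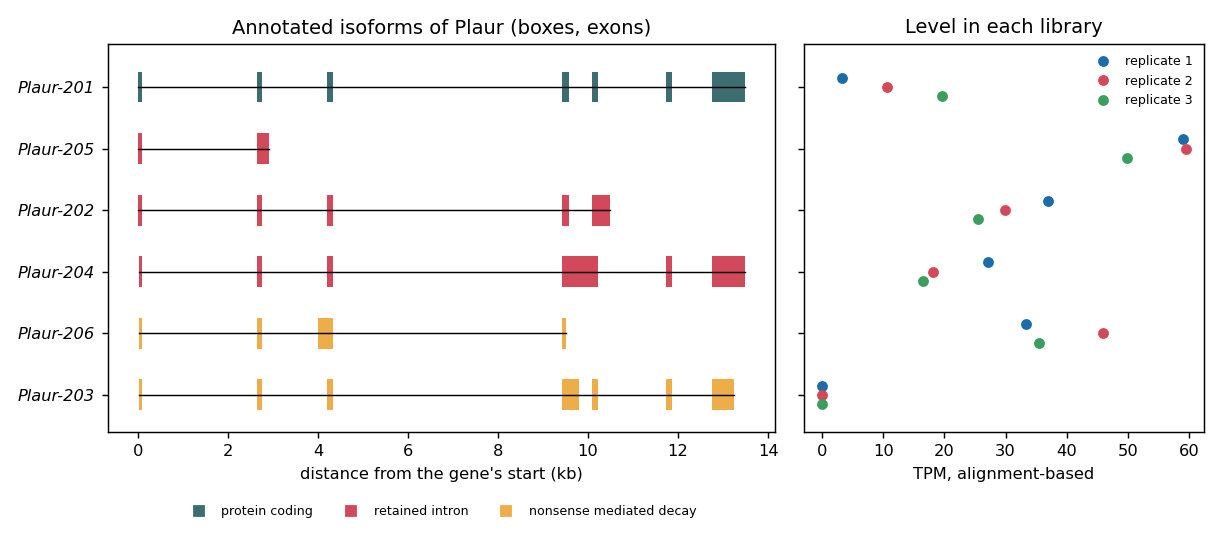
Left, the annotated Plaur isoforms with exons as boxes, by distance from the gene's start in kb and coloured by annotated type. Right, the alignment-based TPM of each isoform in each library: Plaur-205 lies between 49.8 and 59.5 TPM, and Plaur-201 between 3.29 and 19.6 TPM.

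The small protein-coding share of Plaur was set against other expressed genes. Over 6310 protein-coding genes that averaged 1 TPM or more and had an annotated retained-intron or decay isoform, 2.6% had a lower share than the 7.29% ± 5.69 of Plaur (SD, n = 3), and the median share was 50.6%. The median itself was 47.4%, 52.0% and 51.6% in replicates 1, 2 and 3. The SD of the Plaur share was close to the median SD of these genes, 5.72 percentage points, but it was large beside the small mean share of Plaur. In the alignment-free table the share was 8.61% ± 4.08, with 5.12%, 7.63% and 13.1% in replicates 1, 2 and 3, the same order of libraries. There 11.1% of 7669 genes had a lower share, and the median was 41.3%. Counted by expected counts and not by TPM, which weights short isoforms less, the protein-coding share was 15.8% ± 11.7, an alternative chosen after seeing the data. With protein-coding isoforms alone entered for every gene, also chosen after seeing the data, Plaur was no longer called. Its alignment-based level was then 0.89 ± 0.46 above the reference gene (limma adjusted p = 0.81). In the alignment-free table Plaur-201 had 17.2, 19.7 and 32.3 TPM in replicates 1, 2 and 3, and that test was not run there.

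Plau, which encodes urokinase, was the second highest of the 6 genes. It lies at chr14:20836660-20843385 on the plus strand (ENSMUSG00000021822.3) and has 2 annotated isoforms, of which 1 is protein coding. Its level was 39.0, 54.4 and 37.7 TPM in replicates 1, 2 and 3, from 1145, 2587 and 1671 expected counts, with replicate 2 above the other two. It lay 2.62 ± 0.16 above the reference gene (SE, n = 3; limma adjusted p = 0.00033), or 6.16-fold, and ranked 1026 of 12333. In the alignment-based table nearly all of it was the protein-coding Plau-201, with 99.1%, 98.3% and 98.1% of the gene's TPM.

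The tables disagreed on the isoforms of Plau. Plau-202, annotated for nonsense-mediated decay, had 51.9, 42.2 and 30.6 TPM in the alignment-free table and 0.37, 0.92 and 0.71 TPM in the alignment-based table (replicates 1, 2 and 3). Its share of the gene's TPM was thus 42.9% ± 5.48 in the alignment-free table against 1.51% ± 0.49 in the alignment-based one (SD, n = 3 each). The protein-coding Plau-201 had 54.1, 59.3 and 49.4 TPM in the alignment-free table, against 38.7, 53.5 and 37.0 TPM in the alignment-based one. Of Plau-202, 25 bases lie outside the exons of Plau-201: it joins exon 2 (chr14:20837116-20837135) to an acceptor 25 bases upstream of the one used by Plau-201. The junctions are shown because these bases are the only ones in Plau-202 that Plau-201 lacks, with the shared exon in lower case and the next 20 bases in capitals.
Plau-201: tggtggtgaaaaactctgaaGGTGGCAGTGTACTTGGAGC
Plau-202: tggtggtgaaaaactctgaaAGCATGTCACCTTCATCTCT

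**Figure D3:**
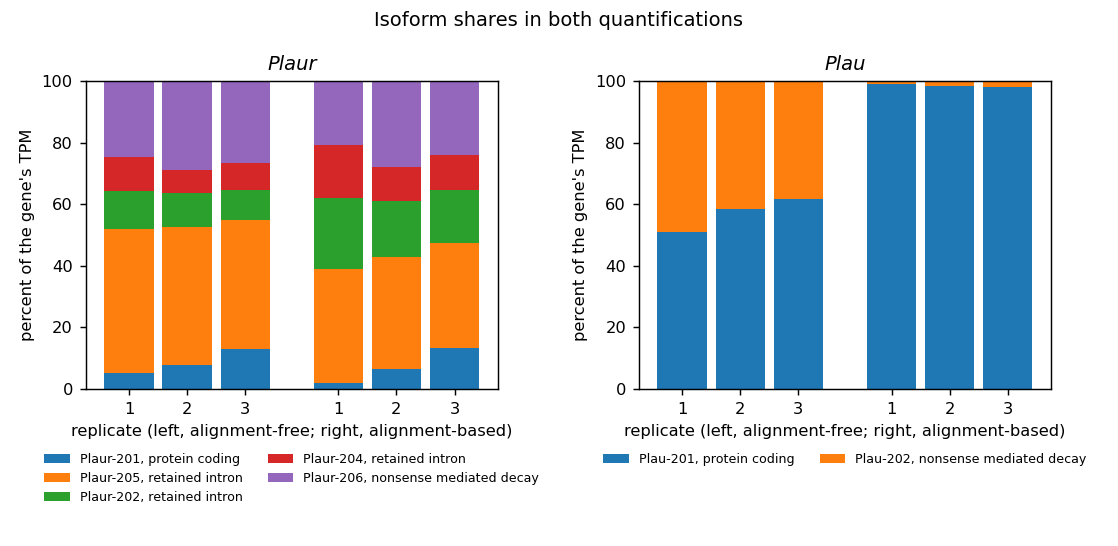
Stacked bars give the percent of the gene's TPM in each isoform of Plaur (left) and Plau (right), by replicate, for the alignment-free table (3 left bars) and the alignment-based table (3 right bars). Plaur-201 is a minor part in both tables, from 2.06% to 13.4%, while Plau-202 takes 38.3% to 49.0% in the alignment-free table and at most 1.89% in the alignment-based one.

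Serpinb2 encodes plasminogen activator inhibitor type 2, a serpin of urokinase that macrophages can make in large amounts. It spans chr1:107511423-107535478 on the plus strand (ENSMUSG00000062345.10). Its level was 2.62, 1.17 and 1.03 TPM in replicates 1, 2 and 3, so replicate 1 was more than double the others. These values rest on 64, 43 and 35 expected counts, with exact Poisson 95% intervals of 49.3 to 81.7, 31.1 to 57.9 and 24.4 to 48.7 that cover counting error only. Serpinb2 lay below the reference gene by a difference of -2.15 ± 0.27 (SE, n = 3; limma adjusted p = 0.0064) and ranked 7818 of 12333. The call was lost in the alignment-free table, at a difference of -1.62 (limma adjusted p = 0.0518), where the levels were 4.62, 1.38 and 1.76 TPM. Most of the level was protein coding, 93.3% ± 5.83 of the gene's TPM. Serpinb10, which overlaps it on the same strand, had at most 1 expected count in a library.

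F3, the tissue factor gene, was expressed at a low level in all 3 libraries. It lies at chr3:121723537-121735048 on the plus strand (ENSMUSG00000028128.13) and overlaps no other annotated gene. Its level was 0.69, 0.82 and 0.85 TPM, from 9, 16 and 14 expected counts in replicates 1, 2 and 3. The exact Poisson 95% intervals of these counts, 4.12 to 17.1, 9.15 to 26.0 and 7.65 to 23.5, overlap throughout. F3 lay below the reference gene by a difference of -2.99 ± 0.23 (SE, n = 3; limma adjusted p = 0.00048) and ranked 9253 of 12333. The isoform assignment differed between libraries: the protein-coding isoform of 6 exons had 4.22, 6.48 and 0 expected counts, the protein-coding one of 3 exons had 0, 0 and 8, and the retained-intron one had 4.78, 9.52 and 6. The alignment-free table gave 7.72, 13.2 and 0 estimated counts to the isoform of 6 exons and 0, 0 and 9 to that of 3 exons, and differences between libraries in these isoforms were not tested.

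Thbs1 stood out by its spread between libraries. It spans chr2:118111876-118127133 on the plus strand (ENSMUSG00000040152.8), and its level was 25.3, 53.4 and 24.5 TPM in replicates 1, 2 and 3. Replicate 2, from 6078 expected counts, was more than double replicates 1 and 3, which had 1714 and 2700 expected counts and lay close together. The difference from the reference gene was 2.20 ± 0.27 (SE, n = 3; limma adjusted p = 0.005), or 4.6-fold, and Thbs1 ranked 1323 of 12333. It was lost as a call when the reference gene was taken over genes of at least 5 TPM, at 1.01 (limma adjusted p = 0.59). Its protein-coding isoform, of 22 exons and 5848 bases, had 21.7, 47.0 and 22.5 TPM, and the retained-intron isoform, of 659 bases, had 3.65, 6.45 and 1.98 TPM. Both isoforms were thus highest in replicate 2, and so was Thbs1 in the alignment-free table, at 27.9, 45.8 and 24.9 TPM. Gm29233, which overlaps Thbs1 on the other strand, had at most 2 expected counts in a library.

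Edn1 had almost no counts in the alignment-based table. The gene lies at chr13:42301476-42307990 on the plus strand (ENSMUSG00000021367.8), with 1 annotated isoform of 5 exons. It had 0.04, 0.09 and 0.22 TPM, from 1, 4 and 9 expected counts in replicates 1, 2 and 3, with exact Poisson 95% intervals of 0.0253 to 5.57, 1.09 to 10.2 and 4.12 to 17.1. It lay below the reference gene by a difference of -5.10 ± 0.41 (SE, n = 3; limma adjusted p = 0.00033) and ranked 12071 of 12333. The alignment-free table gave the same transcript 2.95, 1.46 and 2.35 TPM from 96.1, 104 and 134 estimated counts. Of the 8 endothelial markers, Vwf was called higher at 49.3 TPM, Eng was not called at 2.73 TPM, and 6 were called lower, from Kdr at 0.86 TPM and Pecam1 at 0.24 TPM to Tie1 and Emcn at 0.01 TPM. Pecam1, like Edn1, was higher in the alignment-free table, at 6.72 TPM on average. Kdr and Tie1 were higher there too, at 1.87 and 1.24 TPM. The part of endothelial RNA in the level of Edn1 was not tested. The antisense gene Gm47118, which overlaps Edn1, had at most 1 expected count, and the sources used here do not give the handling of strand.

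Between the tables, Edn1 was the member that differed most. The ratio of alignment-free to alignment-based TPM, on the log2 scale after adding 0.1 and centring on each library's median, was 3.81, 2.79 and 2.46 for Edn1 in replicates 1, 2 and 3. It was past 2-fold on average for Edn1 (3.02 ± 0.71, SD, n = 3) and for no other member. Plau followed at 0.69 ± 0.10, then Plaur at 0.37 ± 0.09, Serpinb2 at 0.12 ± 0.14 and F3 at -0.01 ± 0.34. After centring, Thbs1 was the only member lower in the alignment-free table in all 3 libraries, at -0.47 ± 0.02. The size of the Edn1 ratio depends on the value added, since its alignment-based levels lie near 0.1 TPM. With 1 added, the ratio was 1.12 ± 0.21. Without centring and with 0.1 added, Plau was also past 2-fold, at 1.14 ± 0.27. Thbs1 then stood at -0.02 ± 0.18, with 0.14, -0.22 and 0.02 in replicates 1, 2 and 3. Among 8765 protein-coding genes that averaged 1 TPM or more in the alignment-based table, 877 were past 2-fold in either direction. Edn1 and F3 are not among those genes. Over 11603 genes that reach 1 TPM in either table, a background chosen after seeing the data, 3171 (27.3%) were past 2-fold. Of these, 3139 were higher in the alignment-free table. Genes such as Edn1 enter this background by their alignment-free level alone. That filter raises the share, so the share cannot say how unusual the difference of Edn1 is.

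The order of the 6 levels was Plaur, Plau, Thbs1, Serpinb2, F3, Edn1. Neighbours were said to differ beyond their spread where the within-library difference kept 1 sign in all 3 libraries and its mean exceeded 2 SD, and an exact sign-flip test on 3 libraries cannot go below p = 0.25. Plaur over Plau, at 1.86 ± 0.23 on the log2 scale, Thbs1 over Serpinb2, at 4.36 ± 1.09, and F3 over Edn1, at 2.11 ± 0.48, met this rule (SD, n = 3 each). Plau over Thbs1 did not: the differences were 0.62, 0.03 and 0.62 in replicates 1, 2 and 3, and without replicate 2 they met the rule at 0.62 ± 0.0021. In the alignment-free table Plau stood above Thbs1 by 1.58 ± 0.40, which meets the rule. Serpinb2 over F3 did not either, at 1.78, 0.47 and 0.25, and met it without replicate 1, at 0.36 ± 0.15. In the alignment-free table Edn1 stood above F3 by 0.92 ± 0.07, which turns the order of this pair. With protein-coding isoforms only, in the alignment-based table, the order was Plau, Thbs1, Plaur, Serpinb2, F3, Edn1, and only F3 over Edn1 met the rule.

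Spread between the libraries was measured on expected counts scaled by TMM, as the SD of log2 CPM. Edn1 did not pass the count filter, so 5 of the 6 members entered, with 12931 genes in all and a median SD of 0.27. Thbs1 had an SD of 0.76, and 99.2% of the 618 genes within 0.5 log2 units of its level had a smaller one. Its deviations from its own mean were -0.58, 0.85 and -0.27 in replicates 1, 2 and 3. Serpinb2 followed with an SD of 0.62 against a median of 0.32 at its level, and its high library was replicate 1, at 0.70 above the mean. Plau had an SD of 0.41 against a median of 0.20, with replicate 2 at 0.46 above the mean. F3, at 0.19, and Plaur, at 0.09, lay under the medians at their levels, 0.31 and 0.21. Without replicate 2 the SD was 0.22 for Thbs1 and 0.14 for Plau, against medians of 0.14 at both levels. Without replicate 1 it was 0.17 for Serpinb2, against a median of 0.25. In each case the library left out was the one farthest from the gene's mean, so a smaller SD follows from that choice. Summed over its protein-coding isoform alone in the alignment-based table, Plaur had an SD of 1.37, with deviations of -1.50, 0.31 and 1.19. The median at that level was 0.26, and 99.7% of 1374 genes there had a smaller SD. This spread rests on how that table assigns reads to isoforms. In the alignment-free table the isoform had 17.2, 19.7 and 32.3 TPM in replicates 1, 2 and 3, and its SD was not computed there.

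Replicate 2 was the highest library for Thbs1 and Plau and by small margins for F3 and Plaur, and replicate 1 for Serpinb2. Over all 12931 genes, 36.3% were highest in replicate 1, 37.6% in replicate 2 and 26.1% in replicate 3. Of 40 genes of the pathway lists that passed the count filter, 13, 18 and 9 were highest in replicates 1, 2 and 3. Among them, Cd36, a thrombospondin receptor, deviated by -0.53, 0.90 and -0.37, close to the pattern of Thbs1. Lrp1, the receptor that clears urokinase bound to its inhibitors, deviated by -0.86, 0.71 and 0.15. Cd36 and Lrp1 were picked for the plot after their values were seen. Other genes of the thrombospondin list went both ways. Tgfb1, Adamts1 and Itgb3 were highest in replicate 2, Thbs3 lay between, and Cd47, Sirpa and Itgav were lowest there. Cd47 deviated by 0.37, -0.30 and -0.07 and Sirpa by 0.14, -0.20 and 0.06 in replicates 1, 2 and 3. Replicate 2 was also made from the least RNA, 250 ng, and the part of RNA input in these values was not tested.

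**Figure D4:**
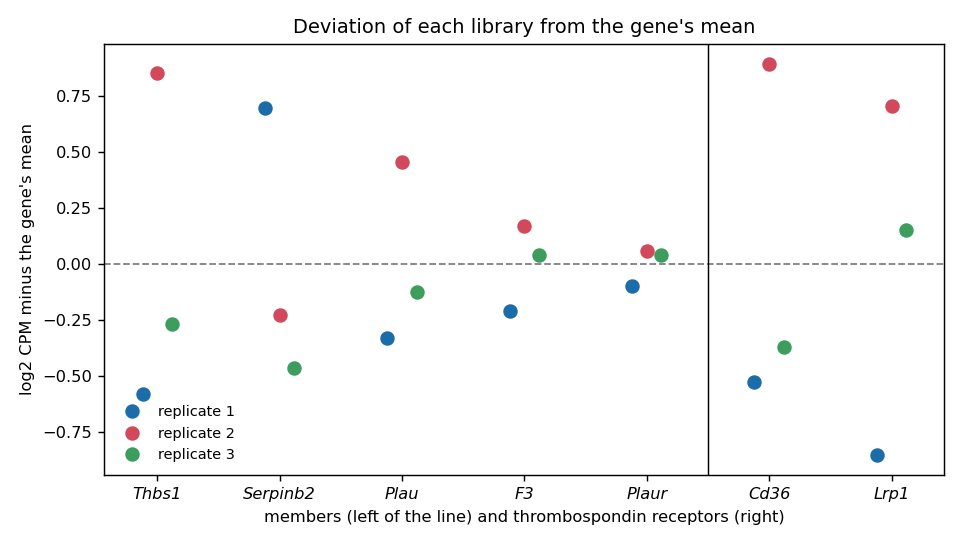
Points give log2 CPM of each library minus the gene's mean over the 3 libraries. Shown are 5 members (left of the vertical line) and 2 receptors (right). The 2 receptors were picked after their values were seen, and Cd47 and Sirpa, not plotted, were lowest in replicate 2. Replicate 2 stands 0.85 above the mean for Thbs1 and 0.90 for Cd36, replicate 1 stands 0.70 above it for Serpinb2, and the 3 libraries of Plaur lie within 0.10 of its mean.

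The rest of the plasminogen system was spread over both sides of the reference gene. Of 20 genes listed beside the members, 9 were called higher, 9 lower and 2 neither, against 15.1% and 52.6% of all genes tested, and the list's median was -1.29. Those called higher were the integrins Itga5 (464 ± 30.5 TPM), Itgav (239 ± 30.0), Itgb1 (50.1 ± 3.92), Itgb2 (24.1 ± 6.35) and Itgam (19.0 ± 3.54, also counted among the macrophage markers), with Lrp1 (208 ± 76.5), the plasminogen receptors Plgrkt (149 ± 34.0) and S100a10 (45.7 ± 6.45), and Anxa2 (19.7 ± 4.02), the partner of S100a10 (mean ± SD, n = 3). The calls of Anxa2 and Itgam were lost without replicate 2 (limma adjusted p = 0.0789 and 0.0856) and without replicate 3 (0.0656 and 0.0583). Both were also lost with a constant prior variance (limma adjusted p = 0.0559 and 0.0626), and that of Itgam in the alignment-free table (limma adjusted p = 0.0568). With protein-coding isoforms only, chosen after seeing the data, Anxa2 was not called, at 0.91. Itgav fell from 5.09 to 1.94 there and was still called. Other surface molecules of the list were low or not called: the collagen receptor gene Mrc2 averaged 0.10 ± 0.08 TPM and the integrin Itgb3 2.32 ± 0.38 TPM, both called lower, and Eno1, whose product can bind plasminogen, 3.50 ± 1.49 TPM, not called. These 3 were named after their values were seen. Plg, the plasminogen gene expressed mainly in liver, had no count in any library of the alignment-based table, and Vtn, encoding vitronectin, had 1 count in all. Plat, encoding tissue plasminogen activator, had 1.33, 1.97 and 3.43 TPM in replicates 1, 2 and 3 and was not called (limma adjusted p = 0.059). It was called lower without replicate 3 (limma adjusted p = 0.015). For this list and those below, listed genes were tested whatever their level, while other genes had to average 0.1 TPM. The shares of all genes tested are thus from an unlike set. With no filter on level, 47196 of 55536 genes were called lower. With genes of at least 1 TPM only, 17 of 36 pathway genes were called higher and 10 lower. Of all 11704 genes at that filter, 2705 were called higher and 2701 lower.

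Coagulation factors were mostly low, as F3 was. Of 20 genes of coagulation and fibrin, 2 were called higher, 16 lower and 2 neither, with a median of -4.01. Of all genes tested, 15.1% were called higher and 52.6% lower. In this list 7 genes averaged 1 TPM or more, and 6 had no count in either table, among them the fibrinogen genes Fga, Fgb and Fgg. The 2 called higher were Ano6 (66.4 ± 7.55 TPM), a scramblase that exposes phosphatidylserine, and Vwf (49.3 ± 3.51 TPM), encoding von Willebrand factor. F13a1, encoding the A chain of the factor that cross-links fibrin, had 10.4, 4.52 and 5.06 TPM and was not called. F7, whose product is the partner of tissue factor, had 1.40, 1.17 and 1.07 TPM and was called lower (limma adjusted p = 0.00076). F10, encoding the substrate of that pair, had 2.23, 0.94 and 1.21 TPM and was called lower too, at -2.25, but stood at 0.06 in the alignment-free table, where it was not called. F2, the prothrombin gene, had 2 counts in all in the alignment-based table and 12.2, 27.6 and 18.3 estimated counts in the alignment-free table.

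Of 16 genes of anticoagulants and protease-activated receptors, 1 was called higher, 13 lower and 2 neither, with a median of -3.09. Of all genes tested, 15.1% were called higher and 52.6% lower. Anxa5, encoding a protein that covers phosphatidylserine, was the one called higher, at 118 ± 7.75 TPM. Tfpi, the inhibitor of tissue factor and factor VII, had 4.74, 3.05 and 3.49 TPM and F2rl2, a thrombin receptor gene, had 7.54, 4.92 and 5.09 TPM, and neither was called. Thbd, encoding thrombomodulin, averaged 1.08 ± 0.30 TPM and Procr, the protein C receptor gene, 1.27 ± 0.50 TPM, both called lower. The receptor gene F2r had 10 counts in all in the alignment-based table and 15.2, 26.9 and 23.3 estimated counts in the alignment-free table. F2rl1, another protease-activated receptor gene, had 0.91, 0.78 and 1.07 TPM in the alignment-free table and no count in the alignment-based table. Of 20 pathway genes without a count in the alignment-based table, 13 had none in the alignment-free table either and none averaged 1 TPM there.

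Genes of the thrombospondin family and its receptors split evenly, and most genes of the endothelin list had no count. Against 15.1% called higher and 52.6% called lower of all genes tested, the 13 genes of thrombospondins and receptors had a median of -1.31. Of these 13, 6 were called higher, 6 lower and 1 neither. Those called higher were Sirpa (1005 ± 226 TPM), which binds Cd47, Cd47 itself (29.7 ± 7.22), Cd36 (30.2 ± 16.9), Tgfb1 (57.2 ± 5.26), Itgav and Lrp1. Reads that Sirpa may share with related genes were not examined. Thbs2 averaged 0.04 ± 0.04 TPM and was called lower. Of 9 genes listed with the endothelins, a list that also holds Vegfa, Nos3 and Mme, 1 was called higher, 6 lower and 2 neither. The shares of all genes tested were again 15.1% higher and 52.6% lower. The one of this list called higher was Vegfa (148 ± 4.11 TPM). Edn2, Edn3, Ednra, Mme and Nos3 had no count in the alignment-based table, which sets the list's median at -6.13, or -4.93 with these genes at the level that 3 counts per library would give. Ednrb, an endothelin receptor gene, had 13.6, 7.07 and 10.6 TPM, and Ece1, encoding an enzyme that makes endothelin from its precursor, had 3.16, 7.61 and 2.32 TPM. Neither of these was called.

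**Figure D5:**
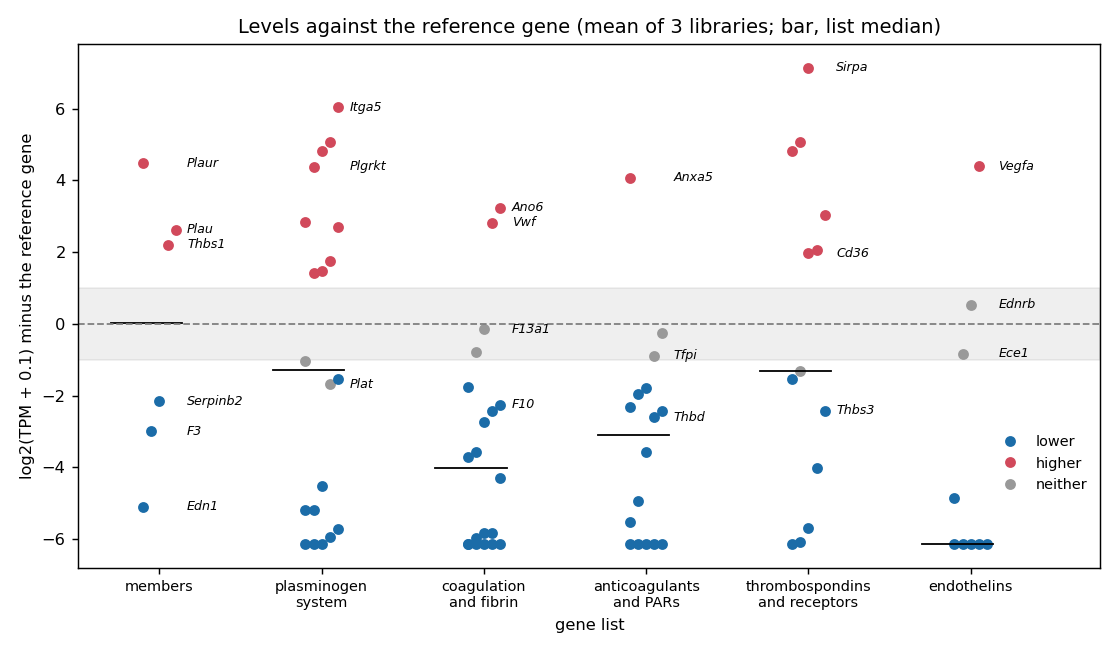
Each point is 1 gene's mean level over 3 libraries as log2(TPM + 0.1) minus the reference gene, by list, coloured by call, with a bar at the list's median and the 2-fold band shaded. The members span from -5.10 (Edn1) to 4.48 (Plaur), and 16 of the 20 coagulation and fibrin genes are called lower, against 52.6% of all genes tested.

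By pattern of level over the 3 libraries, measured as the Euclidean distance in log2(TPM + 0.1) among protein-coding genes, the nearest genes to Plaur were Mrc1 (0.18) and Tgm2 (0.18). Nearest to Plau were Hsp90b1 (0.10) and Xylt2 (0.13), to Serpinb2 Hcst (0.14) and Tab3 (0.16), to F3 Apc2 (0.05) and Zscan20 (0.10), and to Edn1 Trim43a (0.07) and Kcnq1 (0.14). The values of F3 rest on 9, 16 and 14 expected counts and those of Edn1 on 1, 4 and 9 in replicates 1, 2 and 3. The distances take no account of counting error, so the neighbours of F3 and Edn1 cannot be read as a shared pattern. Thbs1 had no gene within 0.25, whereas the other members had between 4 and 26. Its nearest genes were Cers2 (0.42), at 27.9, 41.1 and 26.8 TPM, and Fos (0.42), at 30.3, 49.4 and 30.6 TPM in replicates 1, 2 and 3.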

How the data were processed

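For each of 3 libraries the authors deposited a gene and a transcript table with expected counts, TPM and FPKM (the alignment-based tables) and a transcript table with estimated counts and TPM (the alignment-free table). Per the file headers and the labels, the values refer to mm10 and annotation release M21. Neither the programs nor the handling of strand is given in the sources used here. TPM and FPKM deposited by the authors divide counts by effective length, so short isoforms gain a high TPM from few counts. Expected counts deposited by the authors were rounded for count-based steps. Rows that are no annotated gene (tRNA, spike-in, phiX) held 1.26%, 0.223% and 0.200% of counts in replicates 1, 2 and 3 and were left out of tests and scaling. The floor behind a count of 0 was a share of 2.36e-05%, 1.64e-05% and 1.66e-05% of the library, from 3 counts, counting error only.

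Levels were tested with limma 3.58.1 (treat, 2-fold band, trended prior variance, pseudocount 0.1, genes averaging 0.1 TPM or more, or listed). Spread used edgeR 4.0.16 (TMM, minimum count 10, prior count 2). Tested on simulated levels of 18463 genes, the level test called 100 of 100 genes shifted by 2 on the log2 scale, 100 of 100 shifted by 3 and 23 of 3919 inside the band. The shifted genes were drawn from genes near the level of the reference gene, with normal noise from their fitted SE. Counts were not simulated, so this outcome does not cover genes with few or no counts. Isoform shares, the order, nearest genes and ratios between tables are descriptions without a test. Named genes were the members, the genes of each list called higher, the 3 of highest mean TPM where fewer than 3 were, and defining genes of each pathway, of which 1 is not reported here. The members and lists were chosen with earlier results of these data known. Alternatives were other bands, pseudocounts, reference genes, filters, FPKM, the alignment-free table, a constant prior, DESeq2 1.42.0 size factors and leaving out each replicate.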

Additional observations from a re-analysis of the deposited data

How the results depend on the processing

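For the 42 named genes, 565 of 619 recomputed levels kept their direction and their side of the threshold, 33 lost the call, 11 gained one and 10 turned sign. Of the members' 88 recomputed levels, 82 kept both and 6 lost the call. Taking the reference gene from a TPM of 0.1 or 5 shifted all levels by 1.07 or -1.19. Serpinb2 lost its call with the first (-1.09, limma adjusted p = 0.52) and Thbs1 with the second, and both lost it with a 4-fold band (limma adjusted p = 0.55 and 0.45). With genes of at least 1 TPM, members called lower numbered 1 of 4 and pathway genes called lower 10 of 36, since fewer were tested. The genes whose sign turned with the reference from TPM 0.1 were F13a1 (0.92), F2rl2 (0.80), Ece1 (0.23) and Tfpi (0.18), from TPM 5 Ednrb (-0.65), and in the alignment-free table F10 (0.063), F13a1 (0.11) and Ece1 (0.0079), where the cause was not tested. F13a1 stood between -0.487 and 0.052 when 1 replicate was left out, above 0 without replicate 2. With protein-coding isoforms only, F2rl2 stood at 0.27, and 1 of 5 neighbour pairs in the order differed beyond its spread. The protein-coding share of Plaur was 15.8% by expected counts, and the decay share of Plau was 42.9% in the alignment-free table and 0.863% by expected counts. Without centring, 2 members, Edn1 and Plau, were past 2-fold between the tables. The level of Edn1 against the reference gene was -2.83 with a pseudocount of 1 and -6.04 with 0.01, and it was called lower with each. The alternatives with protein-coding isoforms, expected-count shares and the wider background were chosen after seeing the data. No paired analysis was possible because the series holds 1 group. In the alignment-based table Edn1 had at most 9 counts and F3 at most 16, so counting error is wide there. Edn1 had 96.1, 104 and 134 estimated counts in the alignment-free table in replicates 1, 2 and 3. The cause of this difference was not tested.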
